A study of Mus musculus with 16 samples.

Results

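This comparison set the 8 gastrocnemius arrays of the middle ages, 15 and 24 months, against the 8 arrays of the youngest and oldest ages, 3 and 29 months, which together are the 16 arrays of the study. The arrays were grouped by the ages in the sample labels, and genes that peaked or dipped between youth and late life were then called from their measured values. Of 21777 genes tested, 146 differed at an adjusted p under 0.05, of which 57 peaked (both middle ages had higher means than both end ages) and 57 dipped (both middle ages had lower means). All samples were total RNA from the gastrocnemius, a mixed calf muscle, of untreated female C57Bl/6J mice, an inbred strain, with 4 arrays at each age. The labels give no time of day of collection and do not say that the 4 samples at each age are different animals, so every p-value refers to sample-to-sample spread, part of which may be technical.

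Several of the genes that moved belong to programmes with known roles in muscle. The circadian clock is a transcriptional loop in which the activators CLOCK and BMAL1 (the product of Arntl) drive Per and Cry genes, whose products repress them, and output factors such as DBP pass the daily rhythm on to metabolic genes. Immediate early genes are transcribed within minutes of contraction, growth signals or stress, and the p53 and cell cycle arrest group holds brakes on proliferation and sensors of DNA damage. Muscle also takes up and burns fatty acids, stores and breaks down glycogen, and holds fat cells between its fibres. In whole muscle, fewer cells of a type and less RNA per cell cannot be told apart.

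The arrays covered the design evenly by slide but not by position. Slide 1 carried 3 and 15 months and slide 2 carried 24 and 29 months, so the comparison is the mean of 15 minus 3 months on slide 1 and 24 minus 29 months on slide 2, 2 slide differences that share no array. On both slides the middle age lay in array row 1 and the end age in array row 2, so array row and the comparison cannot be told apart. Of 7 measures of the arrays themselves, including background, spike-in and overall signal, none passed a test between the 8 middle and 8 end arrays (exact permutation tests, two-sided, adjusted p from 0.677 to 0.853). Between 48.0% and 60.9% of probes were well above background on an array. The 12 genes that define skeletal muscle were all measured, and their summed linear signal ranged from 2210000 to 3180000 over the arrays. At 24 months, replicate 2 had a spike-in slope of 0.7975, whereas the remaining 3 replicates had 1.0436 to 1.0606, and replicate 4 stood apart in adipocyte markers, as given below.

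The calls were a small share of the genes. The 146 calls were 0.670% of the 21777 genes, 77 of them higher (0.354%) and 69 lower (0.317%) at the middle ages, and 2715 genes (12.5%) passed an unadjusted p under 0.05. Peaks and dips among the calls were each 0.262% of the genes tested. Without a test, the 4 age means alone put 12.6% of all genes in the order of a peak and 11.5% in that of a dip. The median log2 difference was 0.70 over the called peaks and -0.52 over the called dips, against 0.0077 over all genes, and 15 peaks and 3 dips were at least 2-fold. The 8 middle arrays all lay above the 8 end arrays for 10 called peaks (19 genes, 0.0872%, in all), and all below them for 9 called dips (17 genes, 0.0781%, in all). The number of calls was over 1.5 times lower without any 1 of 10 arrays. Leaving out 3 months replicate 1, 3 or 4 gave 75, 76 and 55 calls. Leaving out 15 months replicate 1, 2, 3 or 4 gave 68, 59, 66 and 84, leaving out 24 months replicate 2 or 4 gave 68 and 94, and leaving out 29 months replicate 4 gave 93. With both 24 months replicates 2 and 4 left out, 25 genes were called, all among the 146, of which 13 peaked and 2 dipped.

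The 2 slides gave mostly different genes. Between 15 and 3 months 213 genes were called (0.978%), 151 of them higher at 15 months (0.693%) and 62 lower (0.285%), and between 24 and 29 months 417 (1.91%), 97 of them higher at 24 months (0.445%) and 320 lower (1.47%). Only 3 genes were called on both slides in the same direction (0.0138%), all of them higher at the middle ages, namely Per2, Neto2 and the clone AK079713, whereas 12 were called in opposite directions (0.0551%). The slide differences correlated at r = -0.0408 across the 21777 genes, which are not independent replicates. Of the 57 peaks, 34 were called between 15 and 3 months and 13 between 24 and 29 months, and in 40 the slide 1 difference was the larger. Of the 57 dips, 9 were called on slide 1 and 34 on slide 2, and in 40 the slide 2 difference was the larger. The contrast of the slide differences with each other was called in 6 peaks and 3 dips, and in 314 genes in all (1.44%).

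**Figure D1:**
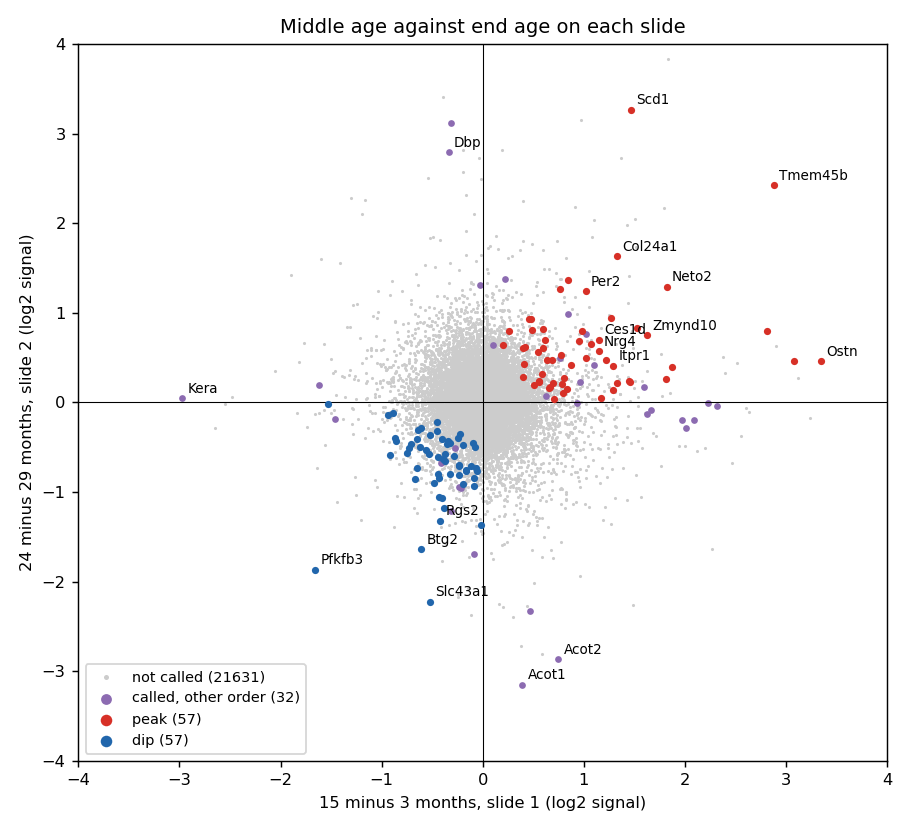
Each point is 1 gene, with the log2 signal difference of 15 minus 3 months (slide 1) on the horizontal axis and of 24 minus 29 months (slide 2) on the vertical axis, coloured as peak, dip, called in another order of ages or not called; 1 gene lies outside the plotted range. Per2, Neto2 and Tmem45b lie far from both axes in the upper right, Pfkfb3 in the lower left, whereas Ostn, Dbp, Kera, Acot1 and Acot2 lie near an axis or in an opposing quadrant.

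Per2 was the 1 peak among the 20 measured clock genes. It encodes a repressor of the circadian loop. Its log2 signals in replicates 1 to 4 were 5.93, 5.52, 5.88 and 5.61 at 3 months, 6.33, 6.76, 7.02 and 6.89 at 15 months, 6.53, 7.02, 6.61 and 6.93 at 24 months, and 5.92, 5.08, 5.24 and 5.89 at 29 months. The lowest middle array was above the highest end array, and the means of 15 and 24 months, 6.75 ± 0.301 and 6.77 ± 0.237 (SD, n = 4), lay within their spread of each other. Per2 rose 2.19-fold at the middle ages (log2 1.13, SE 0.145, adjusted p = 0.00405). The slide 1 difference was 1.02 (SE 0.205, adjusted p = 0.0286) and that on slide 2 was 1.24 (SE 0.205, adjusted p = 0.00868), and their difference of -0.22 was not called (adjusted p = 0.8).

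Noct, which encodes nocturnin, an enzyme with a strong daily rhythm in many tissues, followed the same order at smaller size. Its log2 signals were 10.69, 11.28, 11.15 and 11.15 at 3 months, 11.74, 11.93, 11.79 and 11.90 at 15 months, 11.65, 11.69, 12.01 and 11.75 at 24 months, and 11.26, 11.64, 10.74 and 11.34 at 29 months. The groups again did not overlap, though 29 months replicate 2 came within 0.01 of the lowest middle array. Noct rose 1.57-fold (log2 0.65, SE 0.12, adjusted p = 0.0263), by 0.77 on slide 1 (adjusted p = 0.0466) and 0.53 on slide 2 (adjusted p = 0.135). Its call was lost without 3 months replicate 4 (adjusted p = 0.0538) and without 15 months replicate 2, 3 or 4 (0.0685, 0.0552 and 0.0527).

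Of 20 measured clock genes, 3 were called higher (Per2, Dbp and Hlf) and none lower, against 0.354% and 0.317% of all genes. An unadjusted p under 0.05 was found for 10, of which 7 were higher and 3 lower, against 12.5% of all genes in either direction. The median over the list was 0.14 (log2), beside 0.0077 over all genes. That median was 0.0006 for 15 minus 3 months, with 1 gene called higher (0.693% of all genes). For 24 minus 29 months it was 0.25, with 6 called higher and 2 lower (0.445% and 1.47% of all genes). The list thus did not rise on both slides. Dbp and Hlf, related activators at the output of the clock, were not peaks. Dbp read 13.86 ± 0.253 at 3 months, 13.52 ± 0.239 at 15 months, 13.65 ± 0.0854 at 24 months and 10.86 ± 0.746 at 29 months (log2, SD, n = 4), so that 3 of the 4 ages lay close together and 29 months far below. Its slide differences were -0.34 (adjusted p = 0.788) and 2.79 (adjusted p = 0.000296), and they differed (difference -3.13, adjusted p = 0.0012). Hlf was also lowest at 29 months, at 8.79, 8.76, 8.63 and 7.32 over the 4 ages, with slide differences of -0.03 (adjusted p = 0.994) and 1.31 (adjusted p = 0.00569).

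The activator Arntl, which peaks opposite to its targets in the daily cycle, read 9.26 ± 0.265, 9.45 ± 0.197, 8.91 ± 0.255 and 10.35 ± 0.493 over the 4 ages. Its difference of -0.63 missed the threshold (adjusted p = 0.0818), while 24 months was lower than 29 months by itself (log2 -1.43, adjusted p = 0.006). Ciart, a clock repressor, differed by 2.06 (SE 0.455, adjusted p = 0.0539). Nfil3, which opposes DBP at shared sites, differed by -0.39 (adjusted p = 0.258), Per3 by 0.50 (adjusted p = 0.115) and Per1 by 0.30 (adjusted p = 0.431). Per2 was the only list member called on each slide. With 24 months replicates 2 and 4 left out, 1 clock gene was called, and with the 4 arrays of lowest weight left out, 3.

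**Figure D2:**
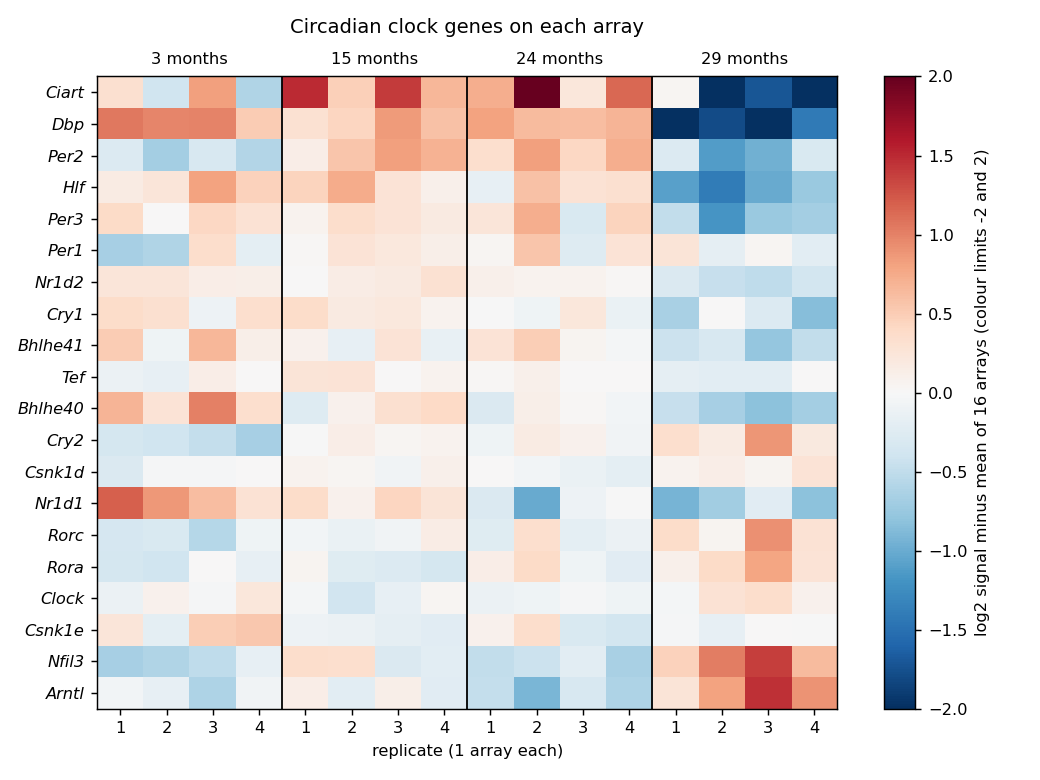
Rows are the 20 measured clock genes in order of the middle-minus-end difference, columns are the 16 arrays by age, and colour is the log2 signal minus the gene's mean over the 16 arrays. Per2 is above its mean on all arrays of 15 and 24 months and below it on all arrays of 3 and 29 months, while Dbp and Hlf are low at 29 months and Arntl and Nfil3 are high there.

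Beyond the clock, the peaks whose groups did not overlap included Tmem45b, Neto2, Zmynd10 and Maob. Tmem45b, a transmembrane protein gene, was well above background on all 8 middle arrays and on none of the 8 end arrays. Its log2 signals were 7.25, 5.22, 6.15 and 6.86 at 15 months and 5.19, 5.30, 6.25 and 8.89 at 24 months, against 3.10, 3.91, 3.64 and 3.34 at 3 months and 3.48, 3.92, 3.48 and 5.06 at 29 months. In the processed signals of the main fit Tmem45b was at least 3.93-fold higher at the middle ages (measured means 6.39 and 3.74, adjusted p = 0.0234). It passed the filter on dim probes only through the middle ages, and with no filter the adjusted p was 0.0546. Neither slide difference of Tmem45b was called (adjusted p = 0.06 on slide 1 and 0.0882 on slide 2). The bound sets the middle mean against, on each end array, the higher of its own signal and the lowest signal marked well above background there. The call was lost without 3 months replicate 1 (adjusted p = 0.0527) or 4 (0.0538) and without 15 months replicate 1 (0.0526). After normexp background correction the difference was smaller (log2 0.98, adjusted p = 0.0635), and the bound does not hold there.

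Neto2, an auxiliary subunit of kainate-type glutamate receptors, was the other gene with a name that was called on both slides. Its log2 signals were 5.08, 4.70, 4.18 and 4.75 at 3 months, 6.84, 6.19, 6.57 and 6.38 at 15 months, 7.64, 6.05, 6.77 and 5.92 at 24 months, and 5.25, 5.10, 5.29 and 5.58 at 29 months. Every middle array lay above every end array, with 24 months the most scattered age. At 3 months only 1 of 4 arrays was well above background, so the differences that use that age rest partly on values not above background. Neto2 rose 2.94-fold (log2 1.55, SE 0.216, adjusted p = 0.00574), by 1.82 on slide 1 (adjusted p = 0.0111) and by 1.29 on slide 2 (adjusted p = 0.0451).

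Zmynd10, which encodes a factor for assembly of ciliary dynein arms, lay near background. It was above background on 7 of the 8 middle arrays, which read 4.86 to 5.26 at 15 months and 4.52 to 4.76 at 24 months, and on none of the end arrays, which read 2.43 to 4.03 at 3 months and 3.28 to 4.36 at 29 months. In the processed signals of the main fit Zmynd10 was at least 1.47-fold higher at the middle ages (measured means 4.91 and 3.72, adjusted p = 0.0192). It passed the filter only through 15 months. That minimum did not hold under other processing. The fitted difference was 0.09 after normexp correction (adjusted p = 0.52) and 0.01 in the deposited log2 values (adjusted p = 0.974). Maob, a mitochondrial monoamine oxidase, was bright and moved little. It rose 1.34-fold (log2 0.42, SE 0.0732, adjusted p = 0.02), from 10.11 ± 0.156 at 3 months to 10.77 ± 0.158 at 15 months, with 10.59 ± 0.113 at 24 months and 10.42 ± 0.0546 at 29 months. Its slide 1 difference was called (0.66, adjusted p = 0.00658), whereas that on slide 2 was 0.17 (adjusted p = 0.466).

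**Figure D3:**
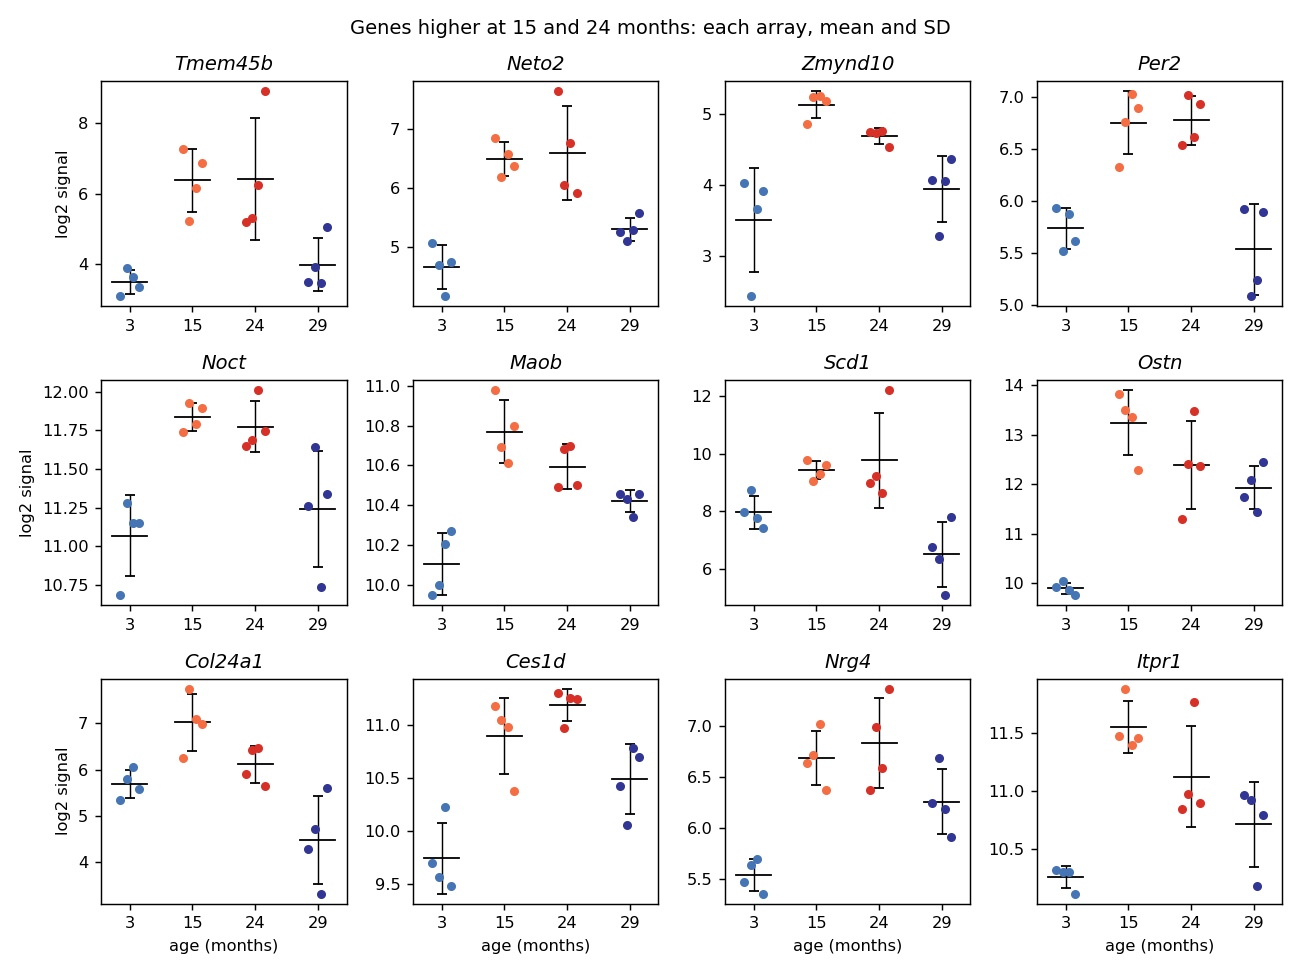
Each panel is 1 of 12 named peaks, with age in months on the horizontal axis and log2 signal on the vertical axis; points are single arrays, horizontal lines the means and bars the SD of 4 arrays, and each panel has its own scale. The 8 middle arrays lie above the 8 end arrays in the first 6 panels (Tmem45b, Neto2, Zmynd10, Per2, Noct and Maob) and overlap with them in the other 6.

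Peaks with a role in fat metabolism included Scd1, Ces1d and Nrg4. Scd1 encodes the desaturase that makes monounsaturated fatty acids. It read 7.96, 8.75, 7.75 and 7.42 at 3 months, 9.77, 9.05, 9.31 and 9.62 at 15 months, 8.99, 9.24, 8.65 and 12.21 at 24 months, and 6.77, 6.34, 5.11 and 7.81 at 29 months (log2). Replicate 4 of 24 months was far above the others, and the groups overlapped only between 24 months replicate 3 and 3 months replicate 2. Scd1 rose 5.16-fold (log2 2.37, SE 0.474, adjusted p = 0.0381), and without 24 months replicate 4 it rose by 1.96 (adjusted p = 0.0217). The slide 1 difference was 1.47 and not called (adjusted p = 0.447), and that on slide 2 was 3.27 (adjusted p = 0.0237). Their contrast did not pass the test (adjusted p = 0.417). The call of Scd1 over the middle ages was lost in 10 of the 16 fits without 1 array, with adjusted p up to 0.0934. It was the only called gene of the 25 measured in lipid and sterol synthesis, against 0.670% called among all genes.

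Ces1d, a carboxylesterase that hydrolyses triglycerides, rose 1.90-fold (log2 0.93, SE 0.144, adjusted p = 0.011), by 1.15 on slide 1 (adjusted p = 0.0144) and 0.70 on slide 2 (adjusted p = 0.0997). Its means were 9.74 ± 0.334, 10.89 ± 0.356, 11.19 ± 0.150 and 10.49 ± 0.328 over the 4 ages, and 1 array of 15 months (10.37) lay within the range of 29 months (10.05 to 10.78). Nrg4, a neuregulin secreted by fat cells that signals through ERBB4, rose 1.81-fold (log2 0.86, SE 0.148, adjusted p = 0.0192), with means of 5.54 ± 0.155, 6.68 ± 0.265, 6.83 ± 0.440 and 6.26 ± 0.320. Nrg4 differed by 1.14 on slide 1 (adjusted p = 0.0167) and by 0.57 on slide 2 (adjusted p = 0.196). A second probe of Nrg4 differed by 0.65 and was not called (unadjusted p = 0.00302, adjusted p = 0.13). Without 3 months replicate 4 the call of Nrg4 was lost (adjusted p = 0.0501), and it was 0.34 after normexp correction (adjusted p = 0.0774).

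Markers of fat cells were set beside these genes. Of 15 adipocyte markers 12 were measured and 3 were below the filter on dim probes. None of the 12 was called, and 7 had an unadjusted p under 0.05, against 12.5% of all genes, all 7 higher at the middle ages. The median difference was 1.29 (log2), beside 0.0077 over all genes. It was 0.65 for 15 minus 3 months, with none called, and 1.72 for 24 minus 29 months, with 1 called higher (0.445% of all genes). Adiponectin (Adipoq) read 6.63 ± 0.367, 8.43 ± 0.987, 8.60 ± 1.75 and 6.43 ± 1.31 over the 4 ages (difference 1.98, adjusted p = 0.124), and resistin (Retn) 8.03 ± 0.165, 9.40 ± 0.399, 9.61 ± 1.62 and 6.88 ± 1.20 (difference 2.05, adjusted p = 0.0612). Fabp4, a fatty acid carrier that endothelium also holds, differed by -0.38 (adjusted p = 0.598), and Car3, which muscle fibres also express, by -0.02 (adjusted p = 0.976). The list's score, its mean log2 deviation from the 16-array mean, was -0.62 to -0.40 at 3 months, -0.40 to 0.70 at 15 months, 0.01 to 2.31 at 24 months and -1.42 to 0.76 at 29 months, with 24 months replicate 4 the highest. The summed linear signal of the list did not separate the ages (161000 to 239000 at 3 months, 180000 to 211000 at 15 months, 172000 to 230000 at 24 months and 180000 to 220000 at 29 months). Such a sum follows the brightest members and cannot show a change in dimmer ones such as Adipoq and Retn, so nothing is drawn from it. Without 24 months replicate 4 the median was 0.90 and Retn was called (log2 1.65, SE 0.315, adjusted p = 0.042), and with the 4 arrays of lowest weight left out it was 0.43. The part of fat cells in the differences of Scd1, Ces1d and Nrg4 was not tested.

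Among peaks that are secreted factors, channels or regulators of storage, Ostn stood out by size. It encodes osteocrin (musclin), a peptide released by muscle. It read 9.93, 10.04, 9.86 and 9.76 at 3 months, 13.82, 13.49, 13.37 and 12.29 at 15 months, 11.30, 12.42, 13.48 and 12.36 at 24 months, and 11.75, 12.09, 11.44 and 12.45 at 29 months. All arrays past 3 months were higher than those of 3 months, and 24 and 29 months overlapped. Ostn rose 3.74-fold at the middle ages (log2 1.90, SE 0.274, adjusted p = 0.00736). The slide differences were 3.35 (adjusted p = 0.000809) and 0.46 (adjusted p = 0.636), and they differed (2.89, adjusted p = 0.0173), so the peak rested on the step from 3 to 15 months.

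Itpr1, a calcium release channel gated by inositol trisphosphate, rose 1.80-fold (log2 0.85, SE 0.146, adjusted p = 0.0191), with means of 10.26 ± 0.0959, 11.55 ± 0.223, 11.12 ± 0.434 and 10.71 ± 0.365. Its slide differences were 1.29 (adjusted p = 0.00733) and 0.41 (adjusted p = 0.372), and their contrast did not pass the test (adjusted p = 0.168). Ppp1r3c, which targets protein phosphatase 1 to glycogen, rose 1.79-fold (log2 0.84, SE 0.164, adjusted p = 0.033), with 13.57 ± 0.349 at 3 months, 15.02 ± 0.282 at 15 months, 14.76 ± 0.279 at 24 months and 14.53 ± 0.456 at 29 months. Its slide 1 difference was called (1.46, adjusted p = 0.00733), whereas that on slide 2 was 0.23 (adjusted p = 0.701). Their contrast did not pass the test (adjusted p = 0.0825). The call of Ppp1r3c over the middle ages was lost in 9 of the 16 fits without 1 array (adjusted p up to 0.0835). Col24a1, a fibrillar collagen gene, was lowest at 29 months, where 1 of 4 arrays was well above background, so the size of its difference is uncertain. It rose 2.79-fold (log2 1.48, SE 0.283, adjusted p = 0.0313), with 5.70 ± 0.305, 7.02 ± 0.614, 6.12 ± 0.398 and 4.49 ± 0.950, and its call was lost in 7 of the 16 fits (adjusted p up to 0.0734). Neither slide difference of Col24a1 was called (adjusted p = 0.157 on slide 1 and 0.0521 on slide 2).

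The remaining peaks, named here only to account for all of them, were smaller or lack a gene name. Camk2b, Rab40b, Zfp788, Gca, Xpo6, Zfp974, Tas1r1, Plch2, Myzap, Arhgap42, Tafa5, Rab42, Tdrkh and Ifit3b rose by 0.40 (Camk2b, adjusted p = 0.0105) to 0.82 (Ifit3b, adjusted p = 0.036) on the log2 scale. Camk2b encodes a subunit of the calcium and calmodulin-dependent kinase that responds to muscle contraction, and a second probe gave 0.49 (adjusted p = 0.0131). Of the 57 peaks, 30 carried only a clone, transcript, probe or interval identifier, against 9 of the 57 dips and 40.7% of all genes tested. Intervals of the genome, with no gene name on the array, made up 12 peaks and 2 dips, against 12.9% of all genes tested.

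A pair of these intervals lay side by side on chromosome 8 (build mm9 per the file headers). The interval chr8:70603786-70604243 read 7.40, 7.82, 7.59 and 6.87 at 3 months, 8.04, 8.28, 8.36 and 8.06 at 15 months, 8.07, 8.63, 8.46 and 8.11 at 24 months, and 6.97, 7.16, 6.74 and 7.33 at 29 months. It rose 2.02-fold (log2 1.02, SE 0.137, adjusted p = 0.00524), and all middle arrays lay above all end arrays. The interval chr8:70623390-70645212, which starts 19147 bases after the end of the first, also rose without overlap (log2 1.10, SE 0.14, adjusted p = 0.00405), and both are read on the same strand in the array's naming. Another probe of this second interval gave 1.03 (adjusted p = 0.0199). One more gave 0.36 (adjusted p = 0.189) and did not rise at 15 months (means 4.95 at 3 months and 4.97 at 15 months). A further pair of peaks on chromosome 5, chr5:22905597-22939154 and chr5:22926562-22927468, overlapped in position and are not independent (adjusted p = 0.0271 and 0.0264). They were well above background on 1 and 3 of the 8 end arrays, so no size is given. Both passed the filter on dim probes only through the middle ages, and the adjusted p does not allow for this. An annotation of that build was not used here, so the genes, exons or introns at these positions are not given.

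The largest dip was Pfkfb3, and other dips included regulators of growth arrest and translation. Upstream sequences are shown for 3 of the large dips and, for contrast, the peak Ppp1r3c, because each holds a motif bound by clock or stress-responsive factors. They are the 250 bases before the annotated start in RefSeq, build GRCm38.p6, read 5′ to 3′ on the gene's strand, with the motif in capitals. The motifs searched were the E-box CACGTG, the cAMP response element TGACGTCA and the D-box TTANGTAA, on both strands, and none of the matches shown overlaps another motif. The windows are chr2:11502091-11502340 on the minus strand for Pfkfb3, chr2:84840073-84840322 on the plus strand for Slc43a1, chr1:134079156-134079405 on the minus strand for Btg2, and chr19:36736605-36736854 on the minus strand for Ppp1r3c.
Pfkfb3: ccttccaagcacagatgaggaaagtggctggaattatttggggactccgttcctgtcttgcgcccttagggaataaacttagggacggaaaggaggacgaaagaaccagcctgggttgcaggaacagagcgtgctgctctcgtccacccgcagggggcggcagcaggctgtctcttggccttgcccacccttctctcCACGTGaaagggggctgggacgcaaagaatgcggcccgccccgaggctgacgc
Slc43a1: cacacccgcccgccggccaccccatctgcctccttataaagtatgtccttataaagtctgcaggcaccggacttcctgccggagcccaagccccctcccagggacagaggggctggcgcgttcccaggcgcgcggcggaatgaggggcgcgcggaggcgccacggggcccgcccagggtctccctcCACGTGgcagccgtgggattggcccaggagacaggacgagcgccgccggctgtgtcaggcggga
Btg2: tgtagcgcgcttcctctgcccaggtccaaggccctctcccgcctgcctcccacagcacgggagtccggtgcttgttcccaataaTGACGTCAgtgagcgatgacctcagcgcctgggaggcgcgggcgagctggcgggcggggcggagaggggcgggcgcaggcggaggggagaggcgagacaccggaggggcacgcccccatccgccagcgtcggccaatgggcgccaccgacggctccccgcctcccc
Ppp1r3c: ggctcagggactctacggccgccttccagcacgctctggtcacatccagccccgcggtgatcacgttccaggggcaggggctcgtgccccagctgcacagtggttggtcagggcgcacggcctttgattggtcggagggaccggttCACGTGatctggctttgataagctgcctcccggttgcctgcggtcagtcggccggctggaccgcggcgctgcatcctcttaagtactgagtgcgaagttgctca
The E-box starts 53 bases before the start of Pfkfb3, 64 before that of Slc43a1 and 104 before that of Ppp1r3c, and the cAMP response element 166 before that of Btg2. An E-box was found in 7 of 50 windows of dips (14%), 1 of 25 windows of peaks (4%) and 6.02% of all 32851 windows. A cAMP response element was found in 1 window of a dip, in none of a peak and in 1.55% of all windows, and a D-box in none of either and in 2.06% of all. Of the 33 named genes 24 had a window, and Per2 was not among them. A match describes these letters only and shows no binding.

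Pfkfb3 makes fructose 2,6-bisphosphate, the activator of the rate-setting step of glycolysis. It read 14.62, 13.87, 14.73 and 13.76 at 3 months, 13.64, 12.45, 12.78 and 11.47 at 15 months, 12.14, 12.13, 12.75 and 12.26 at 24 months, and 14.35, 13.11, 15.07 and 14.23 at 29 months. The means of the end ages were 14.25 and 14.19 and those of the middle ages 12.59 and 12.32, with 15 months replicate 1 and 29 months replicate 2 the arrays that overlapped. Pfkfb3 fell 3.39-fold at the middle ages (log2 -1.76, SE 0.306, adjusted p = 0.0192), with slide differences of -1.66 (adjusted p = 0.0958) and -1.87 (adjusted p = 0.0408) whose contrast did not pass the test (0.21, adjusted p = 0.919). A second probe gave -1.57 (adjusted p = 0.0525). It was called in every fit without 1 array, and its adjusted p was 0.123 without the 4 arrays of lowest weight and 0.105 without 24 months replicates 2 and 4. In glycolysis and glycogen, Pfkfb3 and the peak Ppp1r3c were the only calls among 27 measured genes, against 0.670% called among all genes. The muscle enzymes Pfkm, Pygm and Aldoa differed by 0.16, 0.09 and 0.05 (adjusted p = 0.495, 0.815 and 0.89).

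The dips whose groups did not overlap were more modest in size. Ccrl2, an atypical receptor that binds the adipokine chemerin, read 7.95, 7.87, 8.16 and 8.07 at 3 months, 7.53, 7.43, 7.31 and 7.09 at 15 months, 7.52, 7.26, 7.47 and 7.10 at 24 months, and 8.02, 7.86, 8.71 and 8.19 at 29 months. Both middle ages lay clear of both end ages. Ccrl2 fell 1.69-fold (log2 -0.76, SE 0.117, adjusted p = 0.0105), by -0.67 on slide 1 (adjusted p = 0.0772) and -0.86 on slide 2 (adjusted p = 0.0193). Abhd4, a lipase that acts on N-acyl phospholipids, fell 1.44-fold (log2 -0.53, SE 0.0791, adjusted p = 0.00915), with 12.64 ± 0.125 and 12.80 ± 0.166 at the end ages and 12.19 ± 0.135 and 12.18 ± 0.146 at the middle ages. Map10, which encodes a microtubule-associated protein, fell 1.43-fold (log2 -0.52, SE 0.0883, adjusted p = 0.0188). These 3 kept their calls in all 16 fits without 1 array, but lost them without 24 months replicates 2 and 4 (adjusted p = 0.059, 0.0571 and 0.098). Scaling by the median also ended the calls of Abhd4 and Map10 (0.0717 and 0.0794), and leaving out the 4 arrays of lowest weight that of Map10 (0.0658).

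The others of this kind were less stable. Pabpc1, which binds the poly(A) tail of mRNA, fell 1.39-fold (log2 -0.47, SE 0.0857, adjusted p = 0.024), with 12.81 ± 0.0709, 12.17 ± 0.102, 12.31 ± 0.107 and 12.62 ± 0.278. Its call was lost without 3 months replicate 3 or 4 (adjusted p = 0.054 and 0.0567), 15 months replicate 2 or 4 (0.0658 and 0.0505) or 24 months replicate 2 (0.0565). Thsd1, a membrane protein of blood vessels, fell 1.47-fold (log2 -0.55, SE 0.116, adjusted p = 0.0454), Cavin4, a coat protein of muscle caveolae, 1.33-fold (log2 -0.41, SE 0.084, adjusted p = 0.0414), Jund, an AP-1 transcription factor, 1.31-fold (log2 -0.39, SE 0.0821, adjusted p = 0.0454), and Ctdsp2, a small phosphatase, 1.31-fold (log2 -0.39, SE 0.0797, adjusted p = 0.0434). Of the 16 fits without 1 array, 14 lost the call of Thsd1 (adjusted p up to 0.109), 12 that of Cavin4 (up to 0.096), 16 that of Jund (up to 0.112) and 11 that of Ctdsp2 (up to 0.0987).

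**Figure D4:**
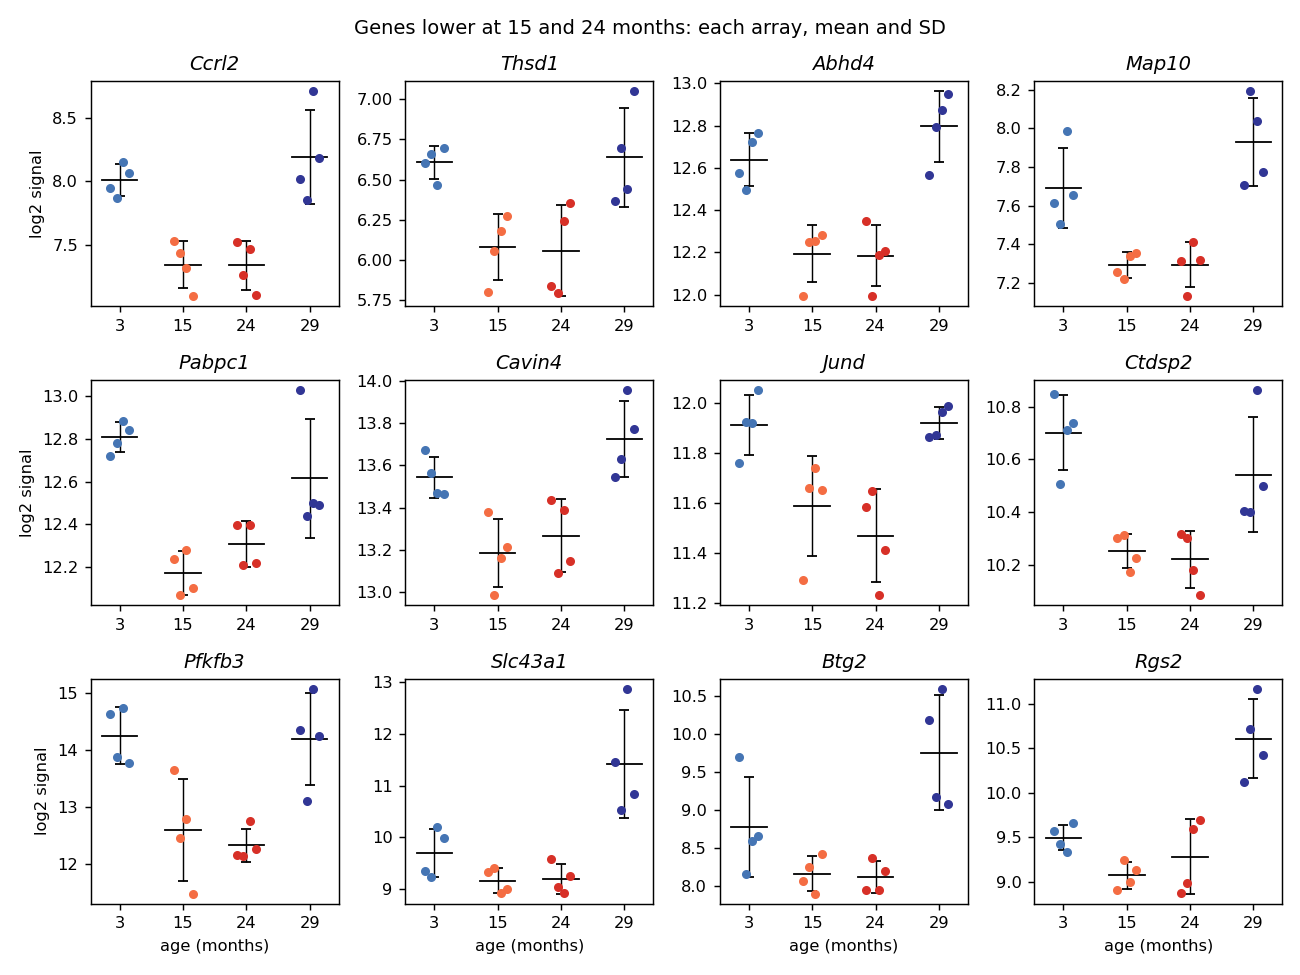
Each panel is 1 of 12 named dips, with age in months on the horizontal axis and log2 signal on the vertical axis; points are single arrays, horizontal lines the means and bars the SD of 4 arrays, and each panel has its own scale. The middle arrays lie below the end arrays in the first 8 panels, and the last 4 (Pfkfb3, Slc43a1, Btg2 and Rgs2) are the larger dips in which groups overlap.

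Slc43a1, Btg2 and Rgs2 were larger dips with their highest means at 29 months. Slc43a1, a transporter of large neutral amino acids, read 9.69 ± 0.468, 9.16 ± 0.238, 9.20 ± 0.285 and 11.42 ± 1.04 over the 4 ages and fell 2.60-fold (log2 -1.38, SE 0.274, adjusted p = 0.0367). Btg2, an antiproliferative gene induced by p53 and by growth signals, read 8.78 ± 0.655, 8.17 ± 0.227, 8.12 ± 0.208 and 9.76 ± 0.754 and fell 2.18-fold (log2 -1.13, SE 0.24, adjusted p = 0.0473). Rgs2, a brake on G protein signalling, read 9.50 ± 0.145, 9.07 ± 0.150, 9.29 ± 0.415 and 10.61 ± 0.444 and fell 1.83-fold (log2 -0.87, SE 0.152, adjusted p = 0.0192). In each the slide 2 difference was called and the slide 1 difference was not, but their contrast did not pass the test (adjusted p = 0.156, 0.348 and 0.179). Calls were lost in 11 of the 16 fits without 1 array for Slc43a1 (adjusted p up to 0.0909), in 13 for Btg2 (up to 0.105) and without 3 months replicate 4 for Rgs2 (0.0502).

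The called genes of growth arrest and of the immediate early response were all lower at the middle ages. In p53 and cell cycle arrest, 3 of 20 measured genes fell (Btg2, Cdkn1b and Gadd45b) and none rose, against 0.317% lower among all genes, and the median was -0.22. That median was -0.0019 for 15 minus 3 months and -0.42 for 24 minus 29 months. Cdkn1b encodes p27, an inhibitor of cyclin-dependent kinases. It read 11.41, 11.35, 11.87 and 11.73 at 3 months, 10.71, 10.81, 10.73 and 10.65 at 15 months, 10.30, 10.56, 10.41 and 10.37 at 24 months, and 10.96, 10.58, 10.78 and 10.93 at 29 months. It was highest at 3 months, and 29 months overlapped with 15 months. Cdkn1b fell 1.55-fold (log2 -0.63, SE 0.0873, adjusted p = 0.00574), by -0.87 on slide 1 (adjusted p = 0.0036) and -0.40 on slide 2 (adjusted p = 0.122). Gadd45b, a stress sensor, fell 1.51-fold (log2 -0.59, SE 0.124, adjusted p = 0.0448), with 10.81 ± 0.266, 10.09 ± 0.216, 10.41 ± 0.208 and 10.88 ± 0.317, a call lost in 14 of the 16 fits without 1 array (adjusted p up to 0.101). Cdkn1a, the p53 target that encodes p21, differed by -0.44 (adjusted p = 0.435). Only 1 gene of this list was called without 24 months replicate 2, without replicate 4, without both, or without the 4 arrays of lowest weight.

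Of 16 measured immediate early genes, 2 fell (Btg2 and Jund) and none rose, against 0.317% lower among all genes, and 7 had an unadjusted p under 0.05, all of them lower, against 12.5% of all genes in either direction. The median was -0.41, with -0.28 for 15 minus 3 months and -0.50 for 24 minus 29 months. Fos read 7.21 ± 0.891, 6.96 ± 0.473, 7.14 ± 0.422 and 9.32 ± 1.09, with a difference of -1.21 (adjusted p = 0.143), and Atf3 9.07 ± 1.74, 8.95 ± 0.190, 8.25 ± 0.596 and 10.62 ± 0.709, with -1.25 (adjusted p = 0.248). The orphan receptor gene Nr4a1 was instead highest at 3 months (mean 15.16 ± 0.506, against means of 14.11 and 14.19 at the middle ages and 13.98 at 29 months). No gene of the list was called without 24 months replicate 2, without 24 months replicate 4 or without 29 months replicate 3, nor without the 4 arrays of lowest weight.

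Fatty acid oxidation and uptake held 2 called genes of 29, both lower at the middle ages (0.317% of all genes) and neither a dip. Acot2, a mitochondrial thioesterase of long-chain acyl-CoA, read 6.94 ± 0.273, 7.68 ± 0.330, 7.37 ± 0.269 and 10.24 ± 0.277, and Acot1, its cytosolic paralog, 6.74 ± 0.677, 7.13 ± 0.439, 7.96 ± 0.520 and 11.11 ± 0.255. Both were far higher at 29 months than at any other age. The slide differences of Acot2 were 0.75 (adjusted p = 0.0963) and -2.87 (adjusted p = 7.06e-06) and those of Acot1 0.39 (adjusted p = 0.803) and -3.15 (adjusted p = 0.000443). The contrasts of the slide differences were called (adjusted p = 3.44e-05 and 0.00185). The genes are close paralogs, and cross-hybridisation between their probes was not tested.

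In other lists single genes moved, where 0.670% of all genes tested were called. Ctsl, which encodes the lysosomal protease cathepsin L, fell 1.54-fold (log2 -0.62, SE 0.1, adjusted p = 0.0133) as the only call among 25 genes of autophagy and lysosome. Its means were 13.66 ± 0.0694, 13.22 ± 0.138, 13.52 ± 0.146 and 14.32 ± 0.336. The slide 1 difference was -0.44 and not called (adjusted p = 0.201), and that on slide 2 was -0.80 (adjusted p = 0.0123). Their contrast did not pass the test (adjusted p = 0.448). The median of that list was 0.09 for 15 minus 3 months, and -0.22 for 24 minus 29 months with 4 called lower (1.47% of all genes). Eif4ebp1, a repressor of translation initiation, fell 1.67-fold (log2 -0.74, SE 0.154, adjusted p = 0.0434) as the only call among 20 genes of the atrophy programme. In that list 13 genes had an unadjusted p under 0.05, 12 of them lower, against 12.5% of all genes, and the median was -0.32. The median was 0.06 for 15 minus 3 months, with 1 gene called higher (0.693% of all genes), and -0.70 for 24 minus 29 months, with 9 called lower (1.47% of all genes), so the list did not dip on both slides. The means of Eif4ebp1 itself were 12.76 ± 0.0847, 12.32 ± 0.169, 12.56 ± 0.317 and 13.62 ± 0.540, and its call was lost in 12 of the 16 fits without 1 array (adjusted p up to 0.102). Kera, which encodes the tendon proteoglycan keratocan, was the only call of 6 measured tendon markers. It was well above background at 3 months only (6.14 ± 0.914), so no fold over the middle ages is given. Oxidative phosphorylation had no call of 42 genes (0 at an unadjusted p under 0.05, median -0.02). Cytosolic ribosomal proteins had none of 39 (8 at an unadjusted p under 0.05, all lower, against 12.5% of all genes, median -0.11). The ribosomal median was 0.03 for 15 minus 3 months and -0.24 for 24 minus 29 months.

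The other dips with a gene name, again named to account for the members, ran from -0.27 (Rab9, adjusted p = 0.0473) to -0.77 (Kcnu1, adjusted p = 0.00405). They included Fbp2, the muscle enzyme of gluconeogenesis (-0.64, adjusted p = 0.0498), Ehhadh of peroxisomal fatty acid oxidation (-0.56, adjusted p = 0.0367), Ddit4l, an inhibitor of mTOR signalling (-0.69, adjusted p = 0.0362), Ccng2, a cyclin linked to arrest (-0.48, adjusted p = 0.0314), and Rrs1 and Brix1, which assemble the large ribosomal subunit (-0.47 and -0.32, adjusted p = 0.024 and 0.0264). A second probe of Brix1 showed no dip (-0.05, unadjusted p = 0.669), with its highest mean at 15 months. Others were Igf2bp2, Rnd1, Map3k8, Vsx1, Pigw, Tbx4, Slc16a6, Plcd3, Tram2, Grip2, Taf7, Ypel2, Atp2c1, Bcor, Gucd1, Tshz1, Ubald2, Asb5, Mindy1, Chic2, Pigt, Mideas and Snrnp48. Further probes of Mideas gave -0.08 and 0.03 (unadjusted p = 0.408 and 0.869). Over all dips 29 months had the highest mean in 40 and 3 months in 17, and over all peaks 3 months had the lowest mean in 37 and 29 months in 20.

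A further 32 called genes had another order of ages, 20 of them higher and 12 lower at the middle ages, and 30 of the 32 were called on exactly 1 slide. The amylase genes Amy1 and Amy2a5, close paralogs that probes may not tell apart, were examples chosen after their values were seen. They differed by 0.94 and 0.86 (adjusted p = 0.00405 and 0.00736), with 2.09 and 2.01 for 15 minus 3 months and -0.20 and -0.29 for 24 minus 29 months.

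Other probes of the same genes or genome intervals mostly gave the same direction, though few passed an adjusted p under 0.05. Of 16 further kept probes of 10 peaks, 16 had the same sign, 11 an unadjusted p under 0.05 and 4 an adjusted p under 0.05. Among those peaks only Camk2b, Ifit3b and Nrg4 carry a gene name, and the rest are intervals. Of 12 further probes of 9 dips, 10 had the same sign, 8 an unadjusted p under 0.05 and 1 an adjusted p under 0.05. Over all genes tested, 12.5% had an unadjusted p under 0.05 in either direction. They share the RNA samples and array positions, so they bear on the probe and not on the samples.

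Because array row equals the comparison, the differences were also followed over the surface of the array, where the row of a spot has no link to its gene. In the processed signals, which the scanner software had spatially detrended, the middle-minus-end difference of the dimmest genes (the lowest 4356 of 21777 by mean signal) correlated with spot row at r = 0.0509 (4324 genes with 1 spot). In median signals after normexp, without that detrending, the same correlation was 0.707, and in the deposited log2 values it was 0.787 (3940 of the dimmest 3972 genes). Among as many of the brightest genes the 3 values were -0.00543, 0.0365 and 0.0264. The numbers of the dimmest genes called in these values were 31 of 4356, 117 of 4356 and 524 of 3972. Genes are not independent replicates in these correlations, which describe the arrays. The spots of the called genes lay at median rows 185 for peaks and 235 for dips, against 193 for all genes tested.

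**Figure D5:**
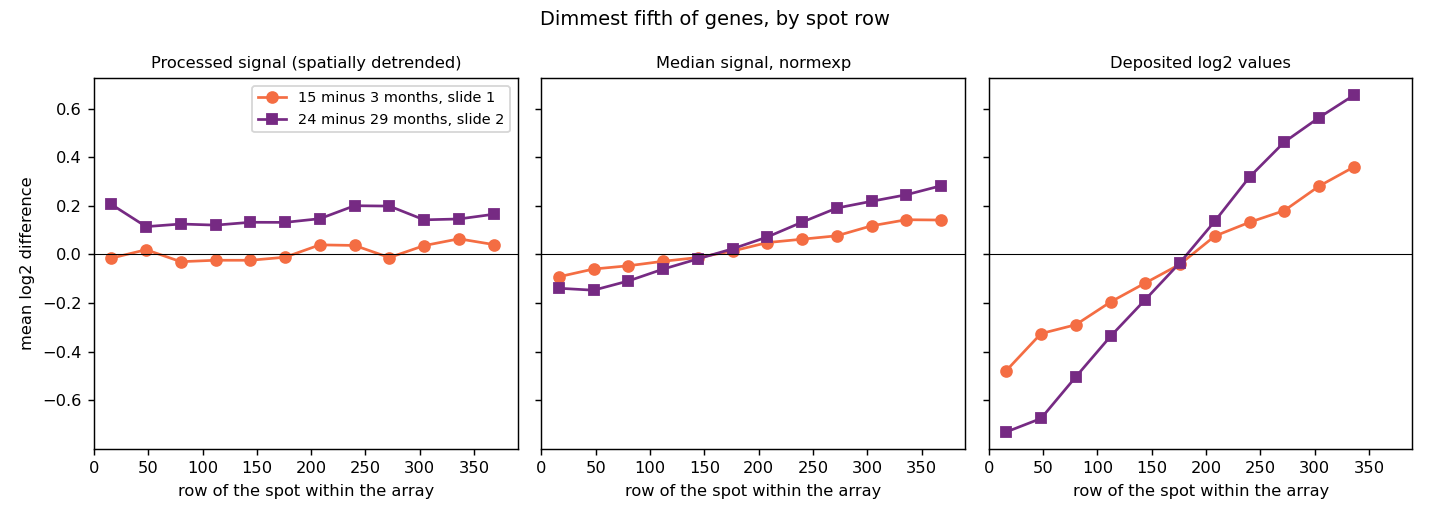
The mean log2 difference of the dimmest genes (4356 of 21777, or 3972 in the deposited values) is plotted against the row of the spot within the array, in 12 bins, of which 11 hold genes in the deposited values, for 15 minus 3 months (slide 1) and 24 minus 29 months (slide 2); the panels show processed signal, median signal after normexp and the deposited log2 values. The deposited values run from -0.48 to 0.36 on slide 1 and from -0.73 to 0.65 on slide 2, in the same direction, while the processed signal stays between -0.03 and 0.06 on slide 1 and between 0.11 and 0.21 on slide 2.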

How the data were processed

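The deposited array files give spot intensity, per the file headers from Agilent Feature Extraction 10.7.1.1, background-subtracted and spatially detrended, with no normalization between arrays. The deposited table holds log2 values; the sources used here do not state how the authors made them, and it was joined by feature number (r 0.985 to 0.993 across probes) and used as an alternative. From the 16 arrays (2 slides), log2 processed signal minus each array's 75th percentile was used. Outlier spots were left out (93 probes lost). A probe was kept if 1 or more ages had it well above background on each of their 4 arrays (28435 probes), and the brightest stood for its gene. Names come from RefSeq GRCm38.p6 by accession (26540 probes), otherwise from the files. Per the file headers intervals are in mm9.

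Limma 3.58.1 (R 4.3.3) was fitted to 4 age means over 16 arrays (12 residual and 2.73 prior degrees of freedom), two-sided, Benjamini-Hochberg over 21777 genes, after a test on simulated data. The members, the gene lists and the rules were chosen with earlier results of these data known. Named genes are the 12 largest peaks and 12 largest dips with a gene name, those without overlap of arrays first, the 2 called members of lowest p in each list, and genes called alike on both slides. Others in the text are list members or are named to complete a count. One dip is not reported here by name. The alternatives tried were scaling by the median, quantile normalization, normexp (offset 50, on median signals, as mean signals are not in the files), the deposited values, 2 other filters, the mean over probes, slide as a block, replicate number as a block, trended robust moderation, array weights, at least 1.5-fold, and leaving out each array; fits without the 4 arrays of lowest weight and without 24 months replicates 2 and 4 were chosen after seeing the data. Replicate number is the array column and does not pair the samples. The number of arrays limits the precision.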

Additional observations from a re-analysis of the deposited data

Results flagged for a closer look

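In groups of 4 arrays, 15 of 184 tested had 1 array far from the others; chance gives about 1 in 20 such groups. Replicate 4 of 24 months was high in Scd1 (log2 signal 12.21, others 8.65 to 9.24) and in the adipocyte marker score (2.31, others 0.01 to 0.19), and low in Zmynd10 (4.52, others 4.73 to 4.76). Itpr1 had an array apart at 3 ages: replicate 4 of 3 months was low (10.11), and replicate 2 of 15 months (11.88) and replicate 3 of 24 months (11.77) were high. Single arrays also stood apart in Abhd4 (15 months replicate 1, low at 11.99), Pabpc1 (29 months replicate 1, high at 13.03), Dbp (3 months replicate 4, low at 13.48) and Eif4ebp1 (29 months replicate 3, high at 14.43). The T and NK cell marker score was high on 29 months replicate 1 (2.70, others -0.44 to -0.05).

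Among measures of the arrays, the spike-in slope of 24 months replicate 2 was 0.7975, against 1.0436 to 1.0606 at that age, and that of 15 months replicate 2 was 1.0493, against 1.0562 to 1.0571. The mean log2 spike-in signal of 3 months replicate 2 was 8.409 (others 8.593 to 8.628), and the median negative control signal of 24 months replicate 3 was 67.7 (others 59.7 to 60.7).

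For 5 named genes the middle age differed from the end age by unlike amounts on the slides, by the test of the difference itself (limma, adjusted over all genes): 2.89 for Ostn (adjusted p = 0.0173), -3.13 for Dbp (0.0012), 3.61 for Acot2 (3.44e-05), 3.54 for Acot1 (0.00185) and -3.02 for Kera (0.0228). Kera was well above background at 3 months only, so its value is no measured size, and its call over the middle ages was lost in 19 of 29 alternative settings. Dbp, Acot1 and Acot2 set 29 months apart from the other ages, and Kera and Ostn set 3 months apart.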

How the results depend on the processing

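The counts below are of called genes for the comparison, then peaks and dips, then 15 against 3 months, 24 against 29 months and the contrast of the 2 slide differences (in the main setting 146, 57, 57, 213, 417 and 314). Scaling by the median gave 55, 20, 18, 89, 249 and 167, and no filter 50, 23, 12, 106, 153 and 139. Array weights gave 266, 98, 93, 1113, 229 and 634. Normexp gave 416, 200 and 141, with 672 for 24 against 29 months, and the deposited values 963, 374 and 447, with 1097. Slide as a block, which moves the contrast of the slide differences into the residual, gave 19, 10 and 8, and a 1.5-fold minimum 82, 36 and 20. The replicate block gave 28 dips and 258 calls for 24 against 29 months, and 6 of 24 pairs of arrays with the same number correlated above 0.1. Over the 24 pairs r ran from -0.471 to 0.303. Without the 4 arrays of lowest weight, 58 of the 146 were called among 127, with 802 calls on slide 1 and 52 on slide 2. Without 24 months replicates 2 and 4 the counts were 25, 13, 2, 25 for 24 against 29 months and 174. Leaving out 1 array gave 55 to 165 calls, 24 to 69 peaks, 13 to 73 dips, 86 to 279 and 153 to 562 calls on slides 1 and 2 and 162 to 511 for their contrast. No named gene of the 33 reversed in any of these settings, and all 146 calls kept their sign in the other settings in which they were tested, with 2 exceptions in the deposited values. Slide as a block, the replicate block, trended robust moderation and the 1.5-fold minimum leave the fitted difference unchanged, so no sign could reverse there. The fits without 1 array reuse the other arrays, so a kept sign in them says little. Of the 33, 16 were called in every fit without 1 array, 10 with slide as a block and 6 without 24 months replicates 2 and 4. Per2, Neto2 and Cdkn1b were called in every setting in which they were tested. The cause of these changes was not tested. Dim genes are limited by background: 17 of the 57 peaks had an end array not above it.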
